A study of Mus musculus with 16 samples.

Results

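The BMP genes described here are 10 genes chosen by name from the pathway: the ligands Bmp2, Bmp4 and Bmp7, the type I receptor Bmpr1a, the target genes Id1, Id2, Id3 and Id4, and the inhibitory Smads Smad6 and Smad7. They are 10 of 54123 genes counted in 16 RNA-seq libraries of mouse colon organoids, and all 10 had enough reads to be tested among 15289 genes. The libraries form 8 groups of 2, which combine region (proximal or distal colon), guide RNA (Scramble-sgRNA, the control, or Cdx2-sgRNA, which targets the intestinal transcription factor Cdx2) and medium. WENR-plus medium held Wnt3a, EGF, Noggin and R-spondin 1, and WENR-minus medium held none of these 4 factors. All groups, controls included, came from 2 female mice aged 8 weeks, heterozygous for a Cre-inducible BRAF allele (V600E) and for a tdTomato reporter. No Cre is described for these libraries. Organoids were grown from the first 1 cm of the proximal and the last 1 cm of the descending colon, edited with lentiviral Cas9 and cultured into month 4. They then spent 2 days in WENR-plus medium and 3 more days in either medium. The Cdx2-sgRNA organoids grew from single cells with frameshifts in both alleles, so they are clonal lines, and no such step is described for the Scramble-sgRNA organoids. Replicates within a group stem from separate mice. Clone and guide RNA effects therefore cannot be told apart between the guides, and clone and mouse cannot within a group of 2. In bulk RNA fewer cells of a type and less RNA per cell cannot be told apart either. In GRCm38 Bmp2 lies at chr2:133552159-133562885 (plus strand), Bmp7 at chr2:172868012-172940321 (minus), Bmpr1a at chr14:34410734-34503341 (minus), Id1 at chr2:152736251-152737410 (plus), Id2 at chr12:25093799-25097140 (minus), Id3 at chr4:136143497-136145755 (plus), Id4 at chr13:48261228-48266026 (plus) and Smad6 at chr9:63953076-64022059 (minus), and the values below cover all exons of each gene.

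BMP ligands are secreted dimers that bring type I receptors such as Bmpr1a together with type II receptors on the cell surface. The receptors phosphorylate Smad1, Smad5 and Smad9, which enter the nucleus with Smad4 and turn on target genes. The Id genes are classic targets: Id proteins lack a DNA-binding region and hold E proteins (Tcf3, Tcf4 and Tcf12) off the DNA. Smad6 and Smad7 are also induced by the pathway and inhibit it. In the colon, signalling is known to be strongest towards the crypt top, and secreted antagonists keep it low at the crypt base. Noggin, one of the factors of WENR-plus medium, is such an antagonist. Since all 4 factors were withdrawn together, the effect of removing Noggin and that of removing the other factors cannot be told apart.

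Total counts were between 12465194 and 18922143 per library. Cdx2 RNA was present in every library (515 to 3269 reads) and was lower in proximal Cdx2-sgRNA than in proximal Scramble-sgRNA organoids in both media, and no such difference passed the test in distal organoids. A frameshifted transcript is still counted, so this RNA level is only a partial check of the labels. The spacer of the Cdx2 guide, shown because every Cdx2 comparison rests on it, lies in coding exon 1 of 3 of Cdx2 at chr5:147306485-147306504 of GRCm38, on the strand of the gene, which is the minus strand. It is printed 5′ to 3′ as read from the oligo list of the study, followed by the next 3 bases of the Cdx2 transcript, the PAM, in capitals.
Cdx2 guide: agcggcgaaacctgtgcgagTGG

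Epithelial markers (Epcam, Cdh1, Krt8, Krt18, Krt19 and Vil1) summed to between 3915 and 5316 CPM (counts scaled to library size with TMM factors) in the 8 WENR-plus libraries and to between 12000 and 17621 CPM in the 8 WENR-minus libraries. The 5 stem cell markers summed to 324 to 546 CPM in WENR-plus and 92.2 to 193 CPM in WENR-minus libraries. For the 6 cell cycle markers these sums were 619 to 1538 CPM and 207 to 766 CPM, which overlap through the proximal Cdx2-sgRNA libraries. The 5 immune markers summed to at most 9.22 CPM, except for 20.9 CPM in 1 proximal Cdx2-sgRNA WENR-minus library. Of 10 fibroblast and smooth muscle markers, Dcn and Lum had no read in any library, and the list summed to between 0.423 and 7.99 CPM. The 4 goblet cell markers summed to between 23.1 and 38.7 CPM in the 4 proximal Cdx2-sgRNA libraries and to between 577 and 7724 CPM in the other 12. The 3 enteroendocrine markers were at 0.687 to 1.78 CPM in those 4 libraries and at 49.8 to 376 CPM in the rest. The 7 colonocyte markers reached 6780 to 15994 CPM in the other WENR-minus libraries and 519 to 1591 CPM in proximal Cdx2-sgRNA WENR-minus libraries. The part of these shifts in cell type markers in the BMP gene results below was not tested. Below, upregulated and downregulated mean that edgeR gave an adjusted p below 0.05 together with a log2 fold change beyond 1 in either direction, with 2 libraries per group. Groups of 2 libraries can readily separate without a true difference, so statements on overlap below are description and add no support. Bmp4 passed the filter on low counts only through its proximal Cdx2-sgRNA libraries, where it is high, so it had to differ there and its calls add no support to the counts below.

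**Figure D1:**
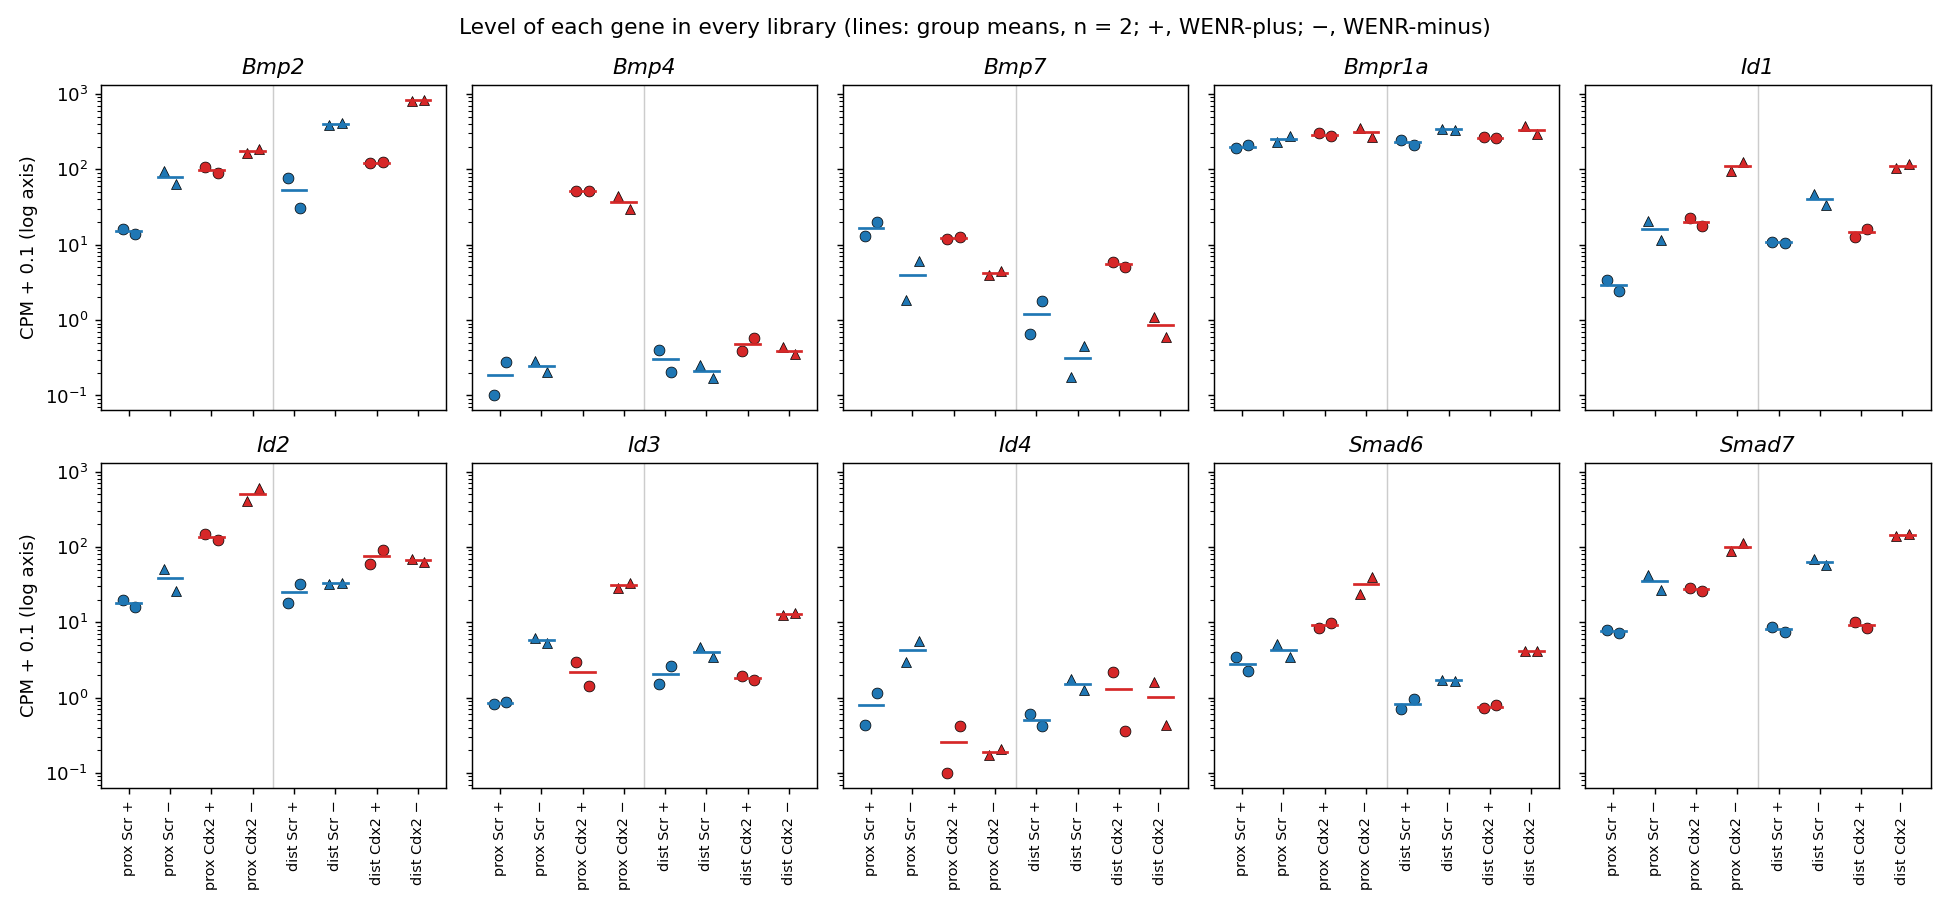
Level of each of the 10 genes in every library, as CPM plus 0.1 on a log axis. Circles are WENR-plus and triangles WENR-minus libraries, blue is Scramble-sgRNA and red Cdx2-sgRNA, and a line marks the mean of the 2 libraries of a group. Bmpr1a lies between 189 and 378 CPM throughout, and Bmp4 stands above 29 CPM only in the 4 proximal Cdx2-sgRNA libraries.

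Withdrawal of the 4 factors raised Id1, Id3 and Smad7 in all 4 backgrounds (Id3 near the threshold in distal Scramble-sgRNA organoids), raised Bmp2 in 3 of them, and lowered Bmp7 in 3. In proximal Scramble-sgRNA organoids 5 of the 10 genes were upregulated (Id1, Id2, Id3, Bmp2 and Smad7) and Bmp7 was downregulated. These 6 calls stand beside 17.0% of all genes called in that comparison. In distal Scramble-sgRNA organoids 5 rose (Id1, Id3, Bmp2, Smad6 and Smad7) and Bmp7 fell, beside 26.4% of all genes. These 6 calls dropped to 3 without replicate 1 of WENR-minus, and the Id3 call was lost with the replicate block (adjusted p = 0.0513). Proximal Cdx2-sgRNA organoids had 5 upregulated genes (Id1, Id2, Id3, Smad6 and Smad7) and none downregulated, beside 6.40% of all genes. With only these 2 groups in the fit the count was 0 in place of 5, and no gene of 13518 was called. In distal Cdx2-sgRNA organoids the 5 that rose were Id1, Id3, Bmp2, Smad6 and Smad7, and Bmp7 fell, beside 33.1% of all genes. The median log2 fold changes of the 10 genes were 1.65, 1.07, 1.33 and 1.48 in this order, and those of all tested genes were −0.055, −0.11, −0.029 and −0.097.

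**Figure D2:**
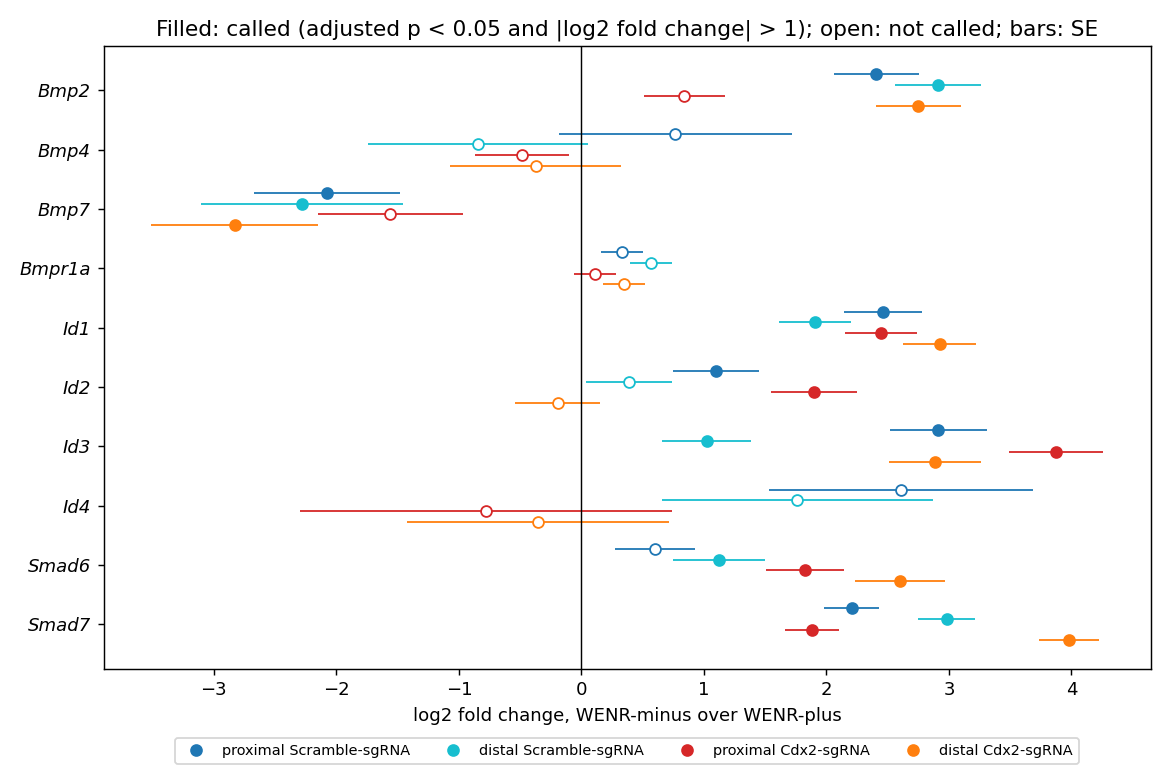
Log2 fold change of WENR-minus over WENR-plus medium for each gene in the 4 backgrounds, with its standard error. Filled points were called. Id1, Id3 and Smad7 are filled in every background, and Bmp4, Bmpr1a and Id4 in none.

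With edgeR, Cdx2 loss upregulated 6 of the 9 genes other than Bmp4 in proximal organoids in either medium, and in distal organoids 4 without the factors and 0 with them. In proximal organoids in WENR-minus medium 7 genes, Bmp4 among them, were upregulated (Id1, Id2, Id3, Bmp2, Bmp4, Smad6 and Smad7) and Id4 was downregulated, beside 21.2% of all genes called. In WENR-plus medium the same 7 genes were upregulated and none was downregulated, beside 15.9% of all genes. Distal Cdx2-sgRNA organoids had Id1, Id3, Smad6 and Smad7 upregulated in WENR-minus medium, beside 5.25% of all genes, and DESeq2, which called 1047 of all 15289 genes there, added Id2 and Bmp2 to these. Each of these 4 distal calls was lost when 1 library was left out: Smad6 without any of the 4 libraries, Id3 without 3 of them, and Id1 and Smad7 without replicate 2 of either group (adjusted p up to 0.113 for Id1, 0.133 for Id3, 0.176 for Smad6 and 0.0859 for Smad7). In WENR-plus medium no gene of the 10 was called in distal organoids by edgeR, beside 0.262% of all genes (973 of 15289 had an unadjusted p under 0.05), while DESeq2 called 3 of the 10 (Id2, Bmp2 and Bmp7) and 175 of all 15289 genes. The comparisons between media and between guides share libraries, so they are not independent of each other.

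**Figure D3:**
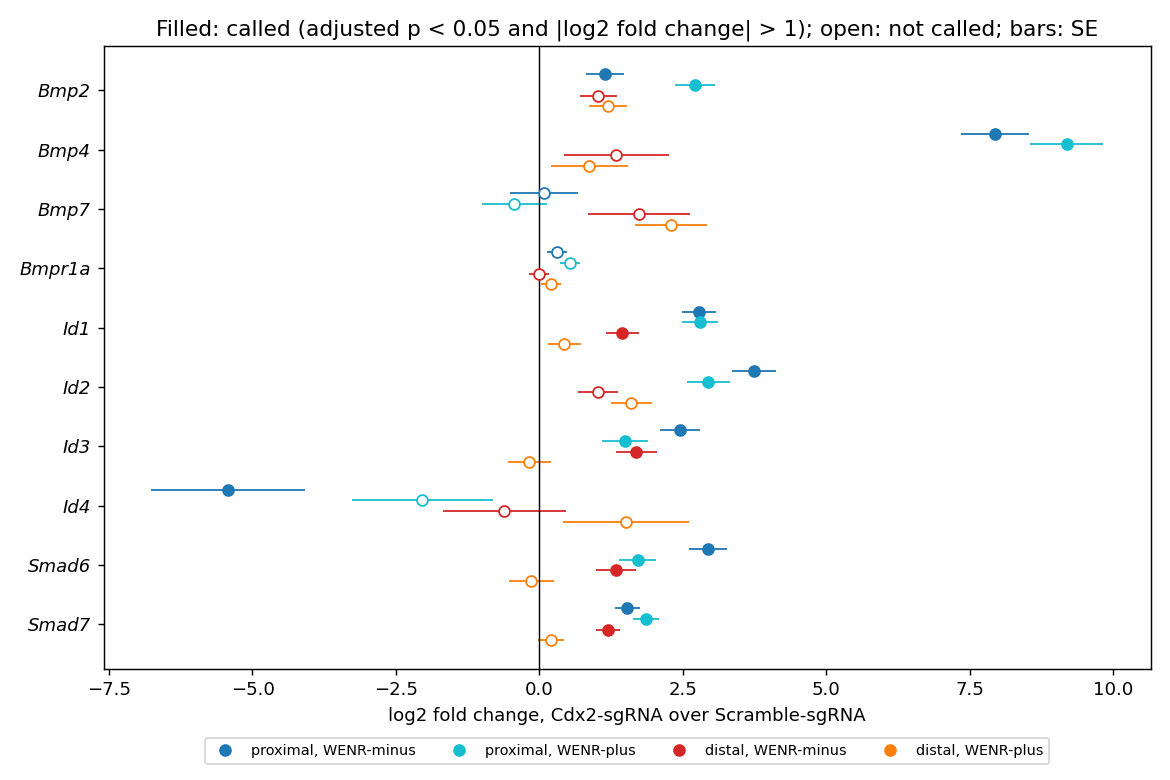
Log2 fold change of Cdx2-sgRNA over Scramble-sgRNA for each gene in each region and medium, with its standard error. Filled points were called. Bmp4 lies farthest to the right in both proximal comparisons and Id4 farthest to the left, and no point is filled for distal organoids in WENR-plus medium.

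Between the regions, proximal Scramble-sgRNA organoids had less Bmp2 and Id1 and more Bmp7 and Smad6 than distal ones, in both media. These 4 calls stand beside 6.08% of all genes in WENR-minus medium and 1.75% in WENR-plus medium. In Cdx2-sgRNA organoids Id2, Id3, Bmp4, Bmp7 and Smad6 were higher and Bmp2 lower in proximal organoids in WENR-minus medium, beside 34.6% of all genes. In these organoids Bmp4, Smad6 and Smad7 were higher in WENR-plus medium, beside 17.0%. The 4 Scramble-sgRNA calls in WENR-minus medium fell to 1 without replicate 1 of the distal or replicate 2 of the proximal group, which left Bmp2. Of the Scramble-sgRNA calls in WENR-plus medium every one was lost when at least 1 library was left out: Id1 without any of the 4, Bmp2 and Smad6 without 3, and Bmp7 without replicate 1 of the distal or replicate 2 of the proximal group (adjusted p up to 0.134, 0.169, 0.209 and 0.0939). In Cdx2-sgRNA WENR-minus organoids the regional difference was 2.95 for Id2 (SE 0.37, adjusted p = 8.86e-05) and −2.23 for Bmp2 (SE 0.34, adjusted p = 0.000317). The Id3 call there was lost without replicate 1 of the distal or replicate 2 of the proximal group (adjusted p = 0.0596 and 0.0537), and the Bmp7 call without replicate 2 of the distal group (adjusted p = 0.0942).

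Bmp2, a ligand made by the epithelium, was highest in distal organoids without the factors. Its level was 16.2 and 13.6 CPM in proximal Scramble-sgRNA organoids in WENR-plus medium and 95.3 and 63.2 CPM in WENR-minus medium. In distal Scramble-sgRNA organoids it was 76.7 and 30.5 CPM with the factors and 391 and 417 CPM without. Withdrawal therefore raised it in both regions, by 2.41 on the log2 scale (SE 0.35, adjusted p = 0.000811) and 2.91 (SE 0.35, adjusted p = 0.000124), with no overlap between the media. In Cdx2-sgRNA organoids the distal level went from 119.6 and 126 CPM to 810.4 and 838 CPM, the highest of any group, by 2.75 (SE 0.35, adjusted p = 7.89e-05). The proximal level went from 105.8 and 90.6 CPM to 166 and 185 CPM, which did not pass the test (0.84, SE 0.33, adjusted p = 0.115). The proximal medium effect in Cdx2-sgRNA organoids was smaller than the distal one by 1.91 (SE 0.46, adjusted p = 0.0134), one of 3 of the 10 genes whose medium effects differed between the regions in these organoids, beside 17.6% of all genes. In proximal organoids Cdx2 loss raised Bmp2 with WENR-plus medium by 2.72 (SE 0.35, adjusted p = 0.00035) and without the factors by 1.15 (SE 0.33, adjusted p = 0.0217). The second of these calls was lost without replicate 2 of either group (adjusted p = 0.134 and 0.0877). In distal organoids edgeR did not call Bmp2 with Cdx2 loss (1.19, SE 0.33, adjusted p = 0.271 with the factors and 1.03, SE 0.33, adjusted p = 0.0708 without them). DESeq2 called it both times, at 1.21 (adjusted p = 0.0261) and 1.04 (adjusted p = 0.0145). The proximal level was below the distal level in Scramble-sgRNA organoids by 2.35 without the factors (SE 0.34, adjusted p = 0.00227) and by 1.84 with them (SE 0.34, adjusted p = 0.0186), the second call lost without 3 of the 4 libraries (adjusted p up to 0.169).

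Bmp4, a ligand that the gut makes mainly in its mesenchyme, was near the floor of detection everywhere except in proximal Cdx2-sgRNA organoids. Proximal Scramble-sgRNA libraries held 0 and 3 reads in WENR-plus and 3 and 2 reads in WENR-minus medium. Proximal Cdx2-sgRNA libraries held 895 and 964 reads (51.9 and 51.0 CPM) in WENR-plus and 593 and 558 reads (44.0 and 29.5 CPM) in WENR-minus medium. All 8 distal libraries, of either guide, held between 1 and 9 reads. The ratio of summed reads in proximal Cdx2-sgRNA over Scramble-sgRNA organoids was 648 in WENR-plus medium (95% interval 221 to 3146, from counting error alone) and 251 in WENR-minus medium (107 to 775). Since Bmp4 entered the test only through these libraries, the ratios are given as a description, with no p-value. The 10 fibroblast and smooth muscle markers summed to 0.423 to 0.740 CPM in these 4 libraries and to 2.19 to 7.99 CPM in the other 12, a sum that is mostly Pdgfrb (1 to 138 reads per library, median 65), while the other 9 had medians of 0 to 1.5 reads. Their part in the Bmp4 result was not tested. With the factors present, the proximal Cdx2 effect on Bmp4 exceeded the distal one by an estimated 8.32 (SE 1.06). Of the other 9 genes, 2 (Id1 and Smad7) had a called difference there with edgeR, beside 4.98% of all genes. DESeq2 also called Bmp2 (1.56, adjusted p = 0.0154), Smad6 (1.90, adjusted p = 0.0442) and Bmp7 (−2.70, adjusted p = 0.0270). Without the factors the proximal Cdx2 effect on Bmp4 exceeded the distal one by an estimated 6.60 (SE 1.44), or 3.78 with length-scaled counts. There 3 of the other 9 genes (Id1, Id2 and Smad6) were called beside 14.3% of all genes, and without replicate 1 of distal Scramble-sgRNA WENR-minus only Id2 was still called. The medium effect on Bmp4 in proximal Cdx2-sgRNA organoids did not pass the test (−0.49, SE 0.38, adjusted p = 0.448).

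Bmp4 lies at chr14:46383520-46390669 of GRCm38 on the minus strand. In the proximal Cdx2-sgRNA libraries 66.7 to 77.2% of its reads were assigned to its longest transcript model, which has a non-coding exon between the first exon and the coding exons, and 22.8 to 32.8% to a shorter coding model, which skips that exon. Each model with a retained intron held at most 0.651% in these libraries. Gm15222, an antisense gene at chr14:46387519-46389282, lies inside an intron of Bmp4 and shares no exon base with it. It held 50.3 and 95.9 reads in proximal Cdx2-sgRNA organoids in WENR-plus medium, 22.0 and 57.0 reads in WENR-minus medium, and no read in any of the other 12 libraries, which allows up to 3 reads each. The library kit keeps the strand and the reads were assigned with automatic detection of the library type. The 250 bases before the RefSeq start of Bmp4 (chr14:46390670-46390919, minus strand, GRCm38.p6) are shown because Bmp4 held over 9 reads in no library but the 4 of proximal Cdx2-sgRNA organoids.
Bmp4 promoter: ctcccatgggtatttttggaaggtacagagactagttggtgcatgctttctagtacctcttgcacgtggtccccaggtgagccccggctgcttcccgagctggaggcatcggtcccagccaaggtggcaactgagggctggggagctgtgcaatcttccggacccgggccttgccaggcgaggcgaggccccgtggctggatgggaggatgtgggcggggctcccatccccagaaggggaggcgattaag
No capitals appear, because none of the motifs searched was in it: GGCGCC (core of a GC-rich Smad1/5 element), GTCTAGAC (palindromic Smad3/4 element), TTTATG (Cdx element core) and CTTTGA (TCF/LEF core), each on both strands. In windows of 300 bases (250 before to 50 after the start) these are held by 3898, 70, 3893 and 5257 of 32851 RefSeq promoters (11.9% for the first), and 6 of the 10 genes had a window (Bmp4, Bmpr1a, Id2, Id3, Id4 and Smad6). GGCGCC was in 3 of these 6 (Bmpr1a, Id2 and Id4).

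**Figure D4:**
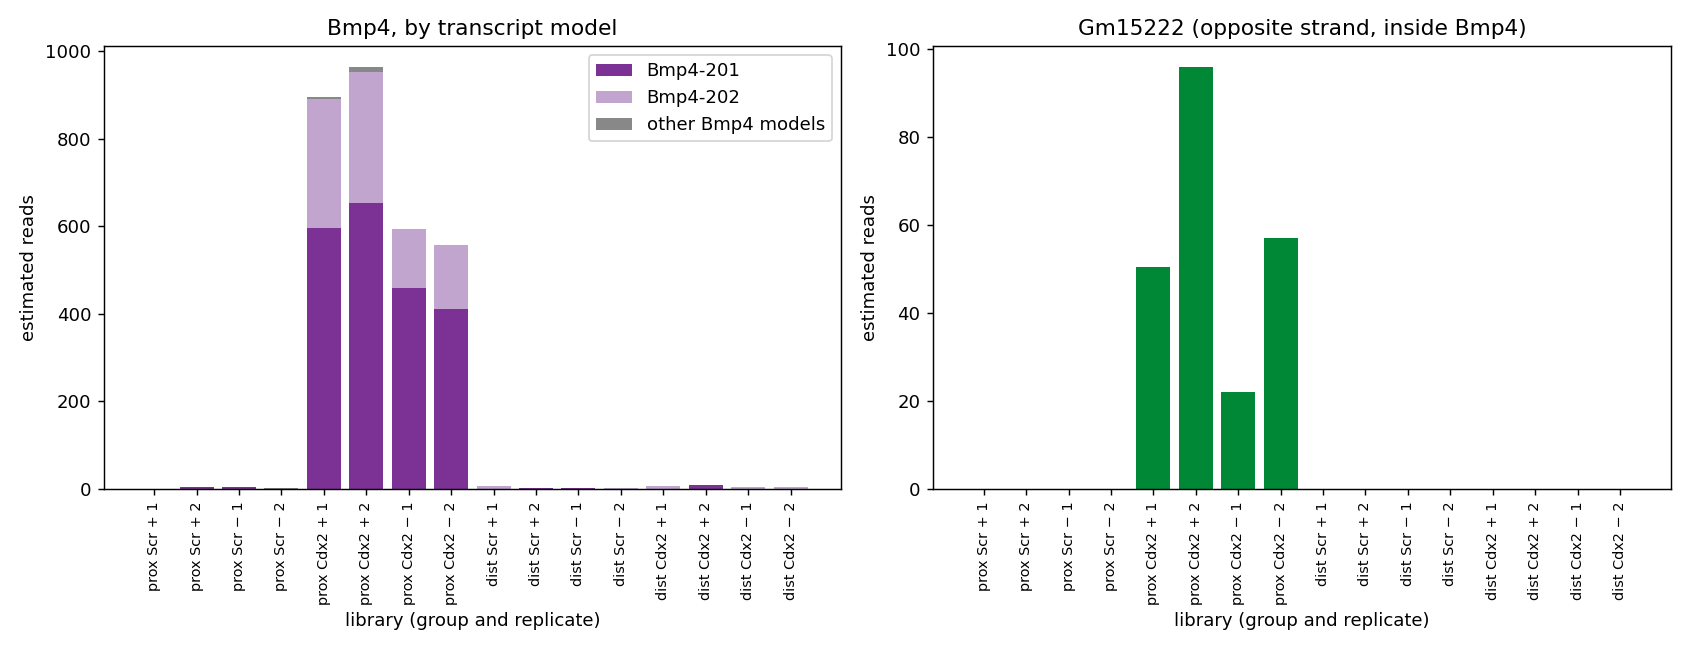
Estimated reads of Bmp4, stacked by transcript model (left; dark purple is the longest model, light purple the shorter coding model, grey the others), and of the antisense gene Gm15222 (right) in each of the 16 libraries, on linear axes, labelled by region, guide (Scr is Scramble-sgRNA), medium (plus or minus sign) and replicate. Bars are seen only for the 4 proximal Cdx2-sgRNA libraries, at 558 to 964 reads of Bmp4 and 22.0 to 95.9 of Gm15222, since the other libraries hold at most 9 and 0.

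Bmp7, a ligand of the same family, went against Bmp2 and fell when the factors were withdrawn in 3 of the 4 backgrounds. In proximal Scramble-sgRNA organoids it was at 13.1 and 19.8 CPM in WENR-plus and at 1.74 and 5.99 CPM in WENR-minus medium, and it fell by 2.08 on the log2 scale (SE 0.60, adjusted p = 0.0226). In distal Scramble-sgRNA organoids it went from 0.551 and 1.67 CPM (11 and 31 reads) to 0.0769 and 0.358 CPM (1 and 5 reads), and it fell by 2.28 (SE 0.83, adjusted p = 0.0462). Distal Cdx2-sgRNA organoids had 5.85 and 5.03 CPM with and 1.02 and 0.502 CPM without the factors (−2.83, SE 0.68, adjusted p = 0.00512). In proximal Cdx2-sgRNA organoids the levels were 11.8 and 12.4 CPM, and 3.86 and 4.34 CPM without the factors, which missed the threshold (−1.56, SE 0.59, adjusted p = 0.105). The media did not overlap in any background. Each of the 3 calls was lost without some library: the proximal one without replicate 1 of WENR-minus or replicate 2 of WENR-plus (adjusted p = 0.149 and 0.120), the distal Scramble-sgRNA one without replicate 1 of WENR-minus or replicate 2 of WENR-plus (0.242 and 0.372) and the distal Cdx2-sgRNA one without replicate 2 of WENR-minus (0.0554). With RLE size factors the distal Scramble-sgRNA call had an adjusted p of 0.0504. Proximal Scramble-sgRNA organoids had more Bmp7 than distal ones with the factors by 3.89 (SE 0.66, adjusted p = 0.0118) and without them by 4.09 (SE 0.79, adjusted p = 0.00954). Both calls were lost without replicate 1 of the distal or replicate 2 of the proximal group (adjusted p = 0.0939 and 0.0793 with the factors, 0.0744 and 0.0736 without). In distal WENR-plus organoids Bmp7 went from 11 and 31 reads in Scramble-sgRNA to 102 and 95 reads in Cdx2-sgRNA libraries. edgeR did not call this (2.29, SE 0.63, adjusted p = 0.263, and 2.41, SE 0.57, adjusted p = 0.137 with the replicate block) and DESeq2 did (2.31, SE 0.65, adjusted p = 0.0304). Neither tool called an effect of Cdx2 loss on Bmp7 in the other 3 comparisons.

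Bmpr1a, a receptor for these ligands, varied little between the groups. Its levels were 189 and 211 CPM in proximal Scramble-sgRNA WENR-plus libraries, the lowest group, and 346 and 334 CPM in distal Scramble-sgRNA WENR-minus libraries, the highest. It was not called in any of the 12 comparisons between groups. The largest effect was that of the medium in distal Scramble-sgRNA organoids, at 0.57 (SE 0.17, adjusted p = 0.0213), which is below the fold threshold. Per length, Bmpr1a was the most abundant of the 10 genes in 3 groups, proximal Scramble-sgRNA in both media and distal Scramble-sgRNA in WENR-plus medium. In proximal Scramble-sgRNA WENR-plus organoids it stood at 45.6 ± 0.865 RPKM (CPM divided by effective length in kilobases, SD, n = 2), above Id2 at 15.96 ± 2.40 RPKM and Bmp7 at 5.12 ± 1.54 RPKM. Without the factors it was exceeded by Bmp2 in distal Scramble-sgRNA organoids (126 ± 4.35 against 79.0 ± 2.19 RPKM).

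Id1 rose when the factors were withdrawn in every background, and the media never overlapped. In proximal Scramble-sgRNA organoids it went from 3.34 and 2.37 CPM to 20.4 and 11.3 CPM, a 5.56-fold rise (2.46 on the log2 scale, SE 0.32, adjusted p = 0.000464). In distal Scramble-sgRNA organoids it went from 10.9 and 10.6 CPM to 47.5 and 33.2 CPM, a 3.76-fold rise (1.91, SE 0.29, adjusted p = 0.000471). Within Scramble-sgRNA organoids every library without the factors was thus above every library of the same region with them. In Cdx2-sgRNA organoids it went from 22.3 and 17.7 CPM to 94.5 and 124 CPM in the proximal region (5.45-fold, adjusted p = 0.00117) and from 12.7 and 16.3 CPM to 103 and 117 CPM in the distal region (7.59-fold, adjusted p = 2.39e-05). The 2 regions reached nearly the same level there, 109 ± 20.6 and 109.9 ± 9.56 CPM (−0.01, SE 0.28, adjusted p = 0.982). Their starting points in Scramble-sgRNA organoids differed: proximal levels were lower than distal ones with the factors by 1.90 (SE 0.31, adjusted p = 0.0105) and without them by 1.35 (SE 0.29, adjusted p = 0.0145). The first call was lost without any 1 of the 4 libraries (adjusted p from 0.0562 to 0.134), and the second without replicate 1 of the distal or replicate 2 of the proximal group (adjusted p = 0.0988 and 0.108). Cdx2 loss raised proximal Id1 7.01-fold in WENR-plus medium (2.80, SE 0.32, adjusted p = 0.000151) and 6.87-fold in WENR-minus medium (2.78, SE 0.30, adjusted p = 6.13e-05). In distal organoids the Cdx2 effect without the factors was 1.45 (SE 0.28, adjusted p = 0.0126), and with them it was 0.43 (SE 0.29, adjusted p = 0.939). With the factors the proximal effect exceeded the distal one by 2.36 (SE 0.42, adjusted p = 0.00835). Without them it exceeded it by 1.34 (SE 0.40, adjusted p = 0.0407), a call lost without any 1 of 5 of the 8 libraries, replicate 1 of both distal groups and replicate 2 of every group but distal Scramble-sgRNA (adjusted p from 0.0824 to 0.126).

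Id2 had its highest level in proximal Cdx2-sgRNA organoids. Its levels there were 149.6 and 124 CPM in WENR-plus and 407 and 612 CPM in WENR-minus medium. The proximal Scramble-sgRNA libraries held 19.7 and 15.7 CPM with and 50.2 and 25.9 CPM without the factors. Cdx2 loss raised proximal Id2 7.72-fold in WENR-plus (2.95, SE 0.37, adjusted p = 0.000294) and 13.4-fold in WENR-minus medium (3.74, SE 0.38, adjusted p = 4.21e-05), calls that were kept without any 1 library. In distal organoids the Scramble-sgRNA levels were 17.9 and 31.9 CPM with and 32.5 and 32.7 CPM without the factors. The distal Cdx2-sgRNA levels were 59.9 and 91.4 CPM with and 69.7 and 62.5 CPM without them. Neither distal Cdx2 effect was called by edgeR (1.60, SE 0.35, adjusted p = 0.119 in WENR-plus and 1.02, SE 0.35, adjusted p = 0.0922 in WENR-minus medium). DESeq2 called both, at 1.61 (adjusted p = 0.00164) and 1.03 (adjusted p = 0.0310). The proximal Cdx2 effect exceeded the distal one in WENR-minus medium by 2.72 (SE 0.50, adjusted p = 0.00428). Withdrawal of the factors raised proximal Id2 in Cdx2-sgRNA organoids by 1.90 (SE 0.35, adjusted p = 0.00716), a call lost without replicate 2 of WENR-plus (adjusted p = 0.0677). In proximal Scramble-sgRNA organoids it rose 2.15-fold (SE 0.35 on the log2 scale, adjusted p = 0.0368), a call lost without 3 of the 4 libraries (replicate 1 of either medium or replicate 2 of WENR-plus, adjusted p up to 0.344). Id2 did not change by the test in distal organoids of either guide. In Cdx2-sgRNA organoids the proximal medium effect exceeded the distal one by 2.09 (SE 0.49, adjusted p = 0.0113), a call lost without replicate 2 of either distal group (adjusted p = 0.0590 and 0.0529). The 250 bases before the RefSeq start of Id2 overlap an annotated exon of Id2 itself. This window holds a match to GGCGCC that begins 231 bases before the start. It also holds the letters of TTTATG on the opposite strand, 29 bases before the start. The 30 bases around the first of these, shown as the only Smad1/5 core in the windows of Id2 and Id3 (Id3 had none), read as follows, with the motif in capitals.
Id2 site: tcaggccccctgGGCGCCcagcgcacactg

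Id3 was upregulated by withdrawal of the factors in every background, and the media did not overlap. It went from 0.717 and 0.769 CPM (15 and 13 reads) to 6.07 and 5.21 CPM in proximal Scramble-sgRNA organoids, a 7.59-fold rise (2.91, SE 0.40, adjusted p = 0.00061). In proximal Cdx2-sgRNA organoids it went from 2.90 and 1.32 CPM to 28.6 and 33.3 CPM, a 14.7-fold rise (3.87, SE 0.38, adjusted p = 0.000677). In distal Cdx2-sgRNA organoids it went from 1.83 and 1.64 CPM to 12.4 and 13.4 CPM, a 7.41-fold rise (2.88, SE 0.37, adjusted p = 9.5e-05). The smallest rise was in distal Scramble-sgRNA organoids, from 1.40 and 2.53 CPM to 4.62 and 3.37 CPM (1.02, SE 0.37, adjusted p = 0.0432). That call was lost with the replicate number as a block (1.01, adjusted p = 0.0513), with length-scaled counts (adjusted p = 0.0650) and without 3 of the 4 libraries (replicate 1 of either medium or replicate 2 of WENR-minus, adjusted p up to 0.221). Whether the medium effect differed between the regions was tested for all 10 genes in Scramble-sgRNA organoids, and edgeR called none of them, beside 0.0719% of all genes (1503 of 15289 at an unadjusted p under 0.05), with an estimate for Id3 of 1.89 (SE 0.53, adjusted p = 0.265). Cdx2 loss raised proximal Id3 in WENR-minus medium by 2.45 (SE 0.36, adjusted p = 0.000432) and in WENR-plus medium by 1.49 (SE 0.40, adjusted p = 0.0193). The WENR-plus call was lost without replicate 1 or 2 of Scramble-sgRNA or replicate 1 of Cdx2-sgRNA (adjusted p = 0.0995, 0.0803 and 0.169). Distal Id3 rose by 1.69 without the factors (SE 0.36, adjusted p = 0.0162).

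Id4 was rare, and edgeR called it lower after Cdx2 loss in proximal WENR-minus organoids, where Id1, Id2 and Id3 were higher. Proximal Scramble-sgRNA libraries held 7 and 18 reads in WENR-plus and 47 and 107 reads in WENR-minus medium. Proximal Cdx2-sgRNA libraries held 0 and 6 reads in WENR-plus and 1 and 2 reads in WENR-minus medium. The ratio of summed reads in WENR-minus medium was 47.1 in favour of Scramble-sgRNA (95% interval 15.8 to 231, from counting error alone) and the fall was called (adjusted p = 0.0106), but not without replicate 1 or 2 of Cdx2-sgRNA (adjusted p = 0.0571 and 0.0677). Distal Scramble-sgRNA libraries held 10 and 6 reads with and 22 and 16 reads without the factors, and distal Cdx2-sgRNA libraries 37 and 5 reads with and 18 and 4 reads without. edgeR called no other comparison of Id4 between groups. DESeq2 also called the lower proximal level in Cdx2-sgRNA WENR-minus organoids (−3.37, SE 1.42, adjusted p = 0.0376, against −3.24, SE 1.37, adjusted p = 0.0696 with edgeR). The medium effect in proximal Scramble-sgRNA organoids was estimated at 2.61 (SE 1.08, adjusted p = 0.0917). The 250 bases before the RefSeq start of Id4 (chr13:48260866-48261115, plus strand, GRCm38.p6) are shown for contrast with Bmp4 and hold 1 GGCGCC motif, in capitals, 148 bases before the start.
Id4 promoter: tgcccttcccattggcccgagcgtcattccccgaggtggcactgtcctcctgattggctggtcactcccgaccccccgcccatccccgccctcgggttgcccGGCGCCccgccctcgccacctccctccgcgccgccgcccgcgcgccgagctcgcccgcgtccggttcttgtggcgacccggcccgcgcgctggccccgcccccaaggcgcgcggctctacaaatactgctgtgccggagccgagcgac

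Smad7, an inhibitor of both BMP and TGF-beta receptors, rose with withdrawal of the factors in every background. It went from 7.79 and 7.22 CPM to 42.9 and 26.5 CPM in proximal Scramble-sgRNA organoids (4.62-fold, 2.21 on the log2 scale, SE 0.23, adjusted p = 0.000195). In distal Scramble-sgRNA organoids it went from 8.61 and 7.31 CPM to 68.4 and 57.7 CPM (7.92-fold, 2.98, SE 0.23, adjusted p = 2.42e-05). Distal Cdx2-sgRNA organoids showed the largest rise, from 9.92 and 8.41 CPM to 140.2 and 149 CPM (15.8-fold, 3.98, SE 0.24, adjusted p = 2.58e-06). In the 3 backgrounds named so far the levels with the factors were all between 7.22 and 9.92 CPM. Proximal Cdx2-sgRNA organoids began higher, at 28.5 and 26.1 CPM, and reached 87.7 and 113 CPM (3.69-fold, 1.88, SE 0.22, adjusted p = 0.0011). All 4 medium calls were kept without any 1 library. In Cdx2-sgRNA organoids the proximal medium effect was below the distal one by 2.10 (SE 0.31, adjusted p = 0.00123). Cdx2 loss raised proximal Smad7 with the factors by 1.86 (SE 0.23, adjusted p = 0.00023) and without them by 1.54 (SE 0.22, adjusted p = 0.000364). In distal organoids it was raised without the factors by 1.20 (SE 0.21, adjusted p = 0.00863), and the estimate with them was 0.20 (SE 0.23, adjusted p = 0.974). The proximal Cdx2 effect in WENR-plus medium exceeded the distal one by 1.66 (SE 0.32, adjusted p = 0.0117), a call lost without replicate 2 of proximal Scramble-sgRNA WENR-plus (adjusted p = 0.0561).

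Smad6, the more BMP-selective inhibitory Smad, was higher in proximal than in distal organoids. Scramble-sgRNA libraries in WENR-plus medium held 3.34 and 2.13 CPM in the proximal and 0.601 and 0.860 CPM (12 and 16 reads) in the distal region, a difference of 1.90 (SE 0.36, adjusted p = 0.0207) that was lost without 3 of the 4 libraries (adjusted p up to 0.209). Without the factors they held 5.02 and 3.34 CPM and 1.62 and 1.58 CPM (1.38, SE 0.34, adjusted p = 0.0284). The second call was lost without any 1 of the 4 libraries (adjusted p from 0.0553 to 0.151). Cdx2 loss brought the proximal level to 8.29 and 9.78 CPM in WENR-plus medium (3.30-fold, 1.72, SE 0.33, adjusted p = 0.0035) and to 23.8 and 40.2 CPM in WENR-minus medium (7.66-fold, 2.94, SE 0.33, adjusted p = 9.04e-05). These proximal libraries were above every other library of the series. Distal Cdx2-sgRNA organoids held 0.631 and 0.688 CPM with and 4.06 and 4.01 CPM without the factors, a 6.13-fold rise (2.60, SE 0.37, adjusted p = 0.00017). The proximal level in Cdx2-sgRNA organoids was 13.7-fold above the distal level with the factors (3.76, SE 0.37, adjusted p = 5.23e-05) and 7.92-fold above it without them (2.99, SE 0.34, adjusted p = 4.59e-05). The rise without the factors in proximal Cdx2-sgRNA organoids was 3.54-fold (1.82, SE 0.32, adjusted p = 0.00566). In distal Scramble-sgRNA organoids it was 2.19-fold (1.12, SE 0.37, adjusted p = 0.0323), a call lost without replicate 1 of either medium or replicate 2 of WENR-minus (adjusted p up to 0.159). In proximal Scramble-sgRNA organoids the media overlapped (0.60, SE 0.33, adjusted p = 0.192). The proximal Cdx2 effect exceeded the distal one in WENR-minus medium by 1.60 (SE 0.47, adjusted p = 0.0385), which was lost without any 1 of 6 of the 8 libraries, all but replicate 1 of both proximal groups (adjusted p up to 0.146). The stretch around the RefSeq start of Smad6, 250 bases before it and the next 4 (chr9:64022056-64022309, minus strand, GRCm38.p6) is shown because it ends in the GTCTAGAC palindrome, in capitals, which begins 4 bases before the start and which 70 of 32851 RefSeq promoter windows hold.
Smad6 promoter: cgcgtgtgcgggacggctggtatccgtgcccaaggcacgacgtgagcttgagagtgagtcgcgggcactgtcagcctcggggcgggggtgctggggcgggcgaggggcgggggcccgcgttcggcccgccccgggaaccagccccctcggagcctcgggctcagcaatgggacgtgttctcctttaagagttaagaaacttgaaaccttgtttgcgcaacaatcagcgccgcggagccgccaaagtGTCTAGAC
A match of letters is a description of the window and not a binding site.

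Whether Cdx2 loss changed the response to the medium was tested for each of the 10 genes by subtracting the medium effect in Scramble-sgRNA organoids from that in Cdx2-sgRNA organoids. No gene of the 10 was called by edgeR in proximal organoids, beside 3.60% of all genes (3277 of 15289 had an unadjusted p under 0.05). None was called in distal organoids, beside 0.00% of all genes (1457 had an unadjusted p under 0.05). DESeq2 called 1 of the 10 in proximal organoids, Bmp2 (−1.57, SE 0.48, adjusted p = 0.0116), and 1166 of all 15289 genes. For Id1 the proximal estimate was −0.02 (SE 0.36), and for Bmp2 edgeR gave −1.57 (SE 0.47, adjusted p = 0.0808).

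Other genes of the pathway were read from lists of ligands, receptors, transducers, antagonists, inhibitors, targets and E proteins, and those with called changes and at least 5 CPM are named. Many of the secreted antagonists had too few reads: 4 of 15 were tested. Of the 4 tested further ligands (of 11 listed), Bmp3, a ligand that counteracts other BMPs, went opposite to Bmp4 with Cdx2 loss in proximal organoids. It had 2980 and 3121 reads in proximal Scramble-sgRNA WENR-minus libraries and 7 and 9 reads in proximal Cdx2-sgRNA ones (−8.43, SE 0.38, adjusted p = 1.15e-07). In WENR-plus medium it had 692 and 409 reads and 8 and 10 reads (−5.83, SE 0.36, adjusted p = 1.97e-06). In distal organoids in WENR-minus medium Cdx2 loss raised Bmp3, from 1156 and 772 to 2932 and 4136 reads (2.04, SE 0.26, adjusted p = 0.00272). Bmp8a and Bmp8b, close copies of each other between which reads may be split, were downregulated with it in proximal WENR-minus organoids (−3.36, SE 0.57 and −3.35, SE 1.12), so 3 of the 4 fell there and none rose, beside 21.2% of all genes called in that comparison. In distal WENR-minus organoids 2 of the 4 rose with Cdx2 loss, Bmp3 and Bmp8a (1.96, SE 0.48, adjusted p = 0.0285), beside 5.25% of all genes. Bmp8a was also upregulated by withdrawal of the factors in proximal and distal Scramble-sgRNA and in distal Cdx2-sgRNA organoids (2.19, 2.22 and 4.76). Withdrawal upregulated Bmp3 in proximal Scramble-sgRNA (means 28.6 to 174 CPM) and distal Cdx2-sgRNA organoids (32.3 to 297 CPM). Bmp3 was not called in distal Scramble-sgRNA (39.3 to 72.1 CPM) or proximal Cdx2-sgRNA organoids (0.496 and 0.498 CPM). All genes called with withdrawal were 17.0% and 26.4% in proximal and distal Scramble-sgRNA, and 6.40% and 33.1% in proximal and distal Cdx2-sgRNA organoids.

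Of 6 tested receptors and co-receptors none rose in any comparison of media or guides, and 1 fell with withdrawal of the factors in distal organoids of either guide (Rgma, a co-receptor, named after its values were seen), beside 26.4% and 33.1% of all genes called there. Of the 3 tested transducers (Smad1, Smad4 and Smad5) none was called in any of the 12 comparisons, in which 0.262% to 34.6% of all genes were, so with 3 genes this count says little. Among 4 tested secreted antagonists, Nbl1, which binds BMPs, rose with Cdx2 loss in proximal organoids from 6 and 12 to 208 and 237 reads in WENR-plus medium (4.64, adjusted p = 0.0112) and from 50 and 68 to 260 and 642 reads in WENR-minus medium (3.00, SE 0.95, adjusted p = 0.0335). Of these 4, 2 rose in each medium there, beside 15.9% of all genes called with the factors and 21.2% without them: with Nbl1 it was Twsg1, a BMP-binding protein, in WENR-minus medium (1.25, SE 0.16, adjusted p = 0.000214), and Chrd (chordin, named after its values were seen) in WENR-plus medium. Nbl1 also rose with withdrawal of the factors in distal Cdx2-sgRNA organoids, from 3 and 45 to 39 and 328 reads (3.57, SE 1.01, adjusted p = 0.0124).

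Inhibitors inside the cell or in its membrane, 7 genes and all tested, split. With withdrawal 2 rose in each Scramble-sgRNA background, beside 17.0% (proximal) and 26.4% (distal) of all genes. In Cdx2-sgRNA organoids 1 rose in the proximal and 3 in the distal region and 1 fell in each, beside 6.40% and 33.1%. With Cdx2 loss in proximal organoids 1 rose and 1 fell in WENR-minus medium, beside 21.2%. In WENR-plus medium 2 rose and 1 fell, beside 15.9%. With 7 genes these counts say little. Skil, a repressor of Smad complexes, rose with withdrawal of the factors in all 4 backgrounds (1.03, 1.79, 1.23 and 2.24 in proximal and distal Scramble-sgRNA and proximal and distal Cdx2-sgRNA organoids) and with Cdx2 loss in proximal organoids in both media (2.35 in WENR-minus and 2.16 in WENR-plus). Tob1, which binds Smads and restrains proliferation, rose with withdrawal in 3 of the 4 (1.37, 1.81 and 2.10, all but proximal Cdx2-sgRNA). Smurf1, a ubiquitin ligase for receptors and Smads, rose with withdrawal in distal Cdx2-sgRNA organoids (1.40) and with Cdx2 loss in proximal WENR-plus organoids (1.16). Bambi, a decoy receptor, fell. It had 56 and 79 reads in proximal Scramble-sgRNA WENR-minus libraries and no read in the Cdx2-sgRNA ones, which is at least 19.9-fold lower with a floor of 3 reads per library (adjusted p = 0.000247). In WENR-plus medium it had 102 and 92 against 4 and 5 reads (−4.33, SE 0.68, adjusted p = 0.00154). Bambi also fell with withdrawal of the factors in Cdx2-sgRNA organoids, in the distal region by 2.13 on the log2 scale (SE 0.61, adjusted p = 0.0152). In the proximal region it went from 4 and 5 reads to none, also called (adjusted p = 0.0439), but with the floor of 3 reads per library the fall is only bounded at 1.30-fold.

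Of 10 further BMP targets 4 were tested, among them Bambi, which is on both lists and fell as given above. With Cdx2 loss in proximal WENR-minus organoids 2 rose (Atoh8 and Dlx3) and 1 fell (Bambi), beside 21.2% of all genes. In WENR-plus medium only Bambi was called, and it fell, beside 15.9%. With withdrawal 1 fell in each Scramble-sgRNA background, beside 17.0% (proximal) and 26.4% (distal). In Cdx2-sgRNA organoids 1 rose and 1 fell in each region, beside 6.40% (proximal) and 33.1% (distal). Atoh8, a transcription factor of the bHLH class, fell with withdrawal of the factors in Scramble-sgRNA organoids, from 66 and 34 to 7 and 9 reads in the proximal region (−2.50, SE 0.50, adjusted p = 0.00401) and from 41 and 67 to 4 and 7 reads in the distal region (−2.77, SE 0.53, adjusted p = 0.00171). In proximal Cdx2-sgRNA organoids it rose instead, from 85 and 35 to 733 and 1168 reads (4.10, SE 0.45, adjusted p = 0.000879). The difference of the proximal medium effects was 6.60 (SE 0.67, adjusted p = 0.00198). Dlx3, a homeobox gene, rose in proximal WENR-minus organoids with Cdx2 loss, from 2 and 0 to 39 and 34 reads (adjusted p = 0.0310), and with withdrawal in distal Cdx2-sgRNA organoids, from 6 and 0 to 248 and 94 reads (adjusted p = 0.00368). Of the 3 E proteins that Id proteins bind, Tcf3 fell with withdrawal in distal organoids of either guide (−1.59, SE 0.20 and −1.57, SE 0.20). That stands beside 26.4% and 33.1% of all genes called in Scramble-sgRNA and Cdx2-sgRNA organoids. Tcf4 rose by 1.01 (SE 0.15) with Cdx2 loss in proximal WENR-minus organoids, beside 21.2%. Tcf12 was not called in any comparison of media or guides.

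**Figure D5:**
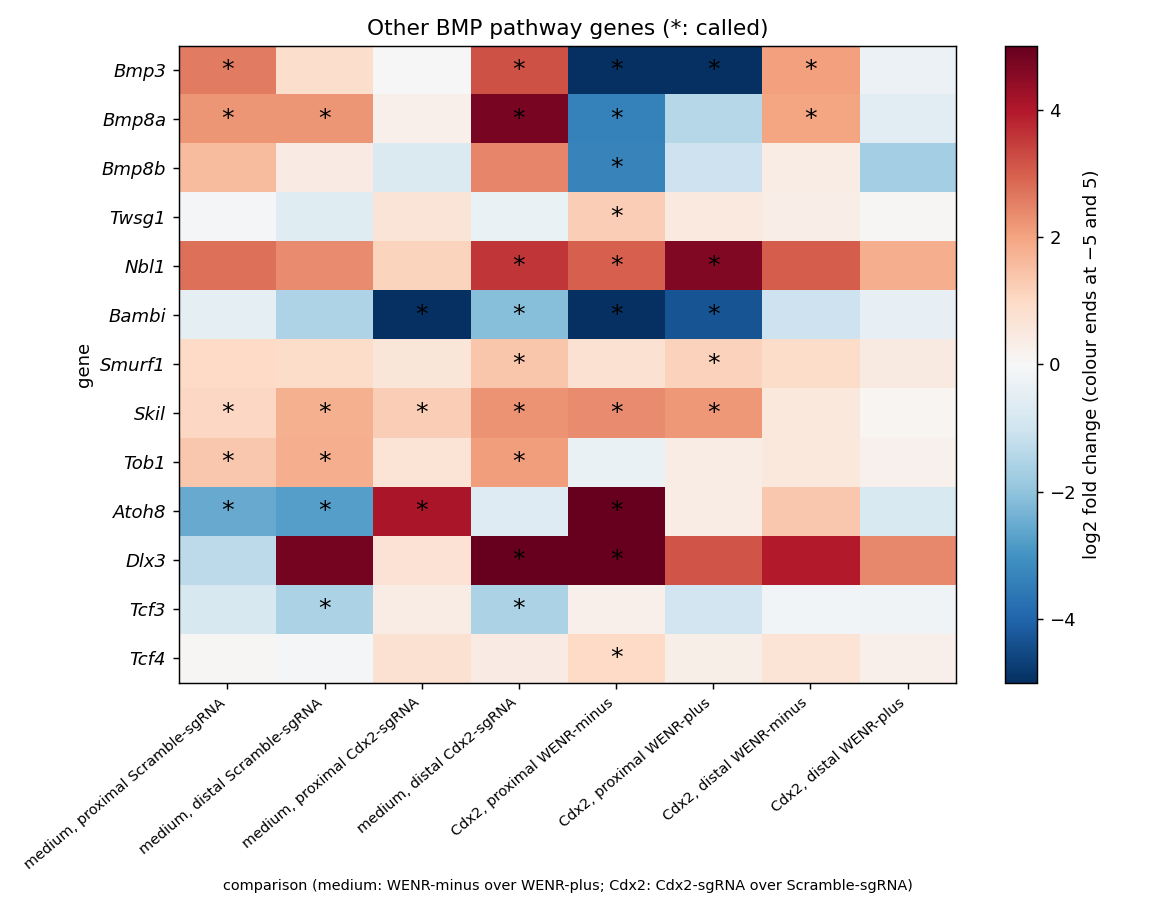
Log2 fold changes of the 13 further pathway genes named by the rule, in the 4 medium and 4 Cdx2 comparisons. Red is higher and blue lower in WENR-minus medium or in Cdx2-sgRNA organoids, colours end at −5 and 5, and an asterisk marks a called gene. Skil is marked in all 4 medium columns, and no gene is marked for distal organoids in WENR-plus medium. Values of genes with no or few reads in a group, such as Bambi and Dlx3, depend on the prior count of the fit.

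The genes whose levels followed the 10 most closely were read by Pearson's r of log2 CPM over the 16 libraries, which share mice and groups, so r is a description. The closest gene was Cd2ap for Id1 (r = 0.96), Clu for Id2 (0.95), Sema4b for Id3 (0.96), Ppm1h for Id4 (0.91), AA467197 for Bmp2 (0.97), Bst1 for Bmp4 (0.99), Rem2 for Bmp7 (0.91), Il4ra for Smad6 (0.97), Ankrd50 for Smad7 (0.98) and Slc45a3 for Bmpr1a (0.91). Gm15222 was among the 3 closest to Bmp4 (0.98).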

How the data were processed

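RNA was measured in 16 libraries of mouse colon organoids. The authors quantified paired-end reads with Salmon 1.1.0 on GENCODE vM23 transcripts (mm10). What they deposited for each transcript is an estimated count (expected count), with no scaling between libraries, and the deposited TPM and effective lengths come from the same Salmon run by the authors. Counts were summed to genes by transcript identifier through GENCODE vM21 (GRCm38), an earlier release: 139864 of 140748 transcripts matched, and the other 884 held 0.257 to 0.510% of a library's counts. Total counts of 12465194 to 18922143 per library set the precision, and counting intervals cover counting error only.

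Rounded counts were tested with the quasi-likelihood test of edgeR 4.0.16 (R 4.3.3) on 15289 genes kept by filterByExpr, with TMM scaling, 1 coefficient per group, 8 residual degrees of freedom and Benjamini-Hochberg adjustment over all tested genes. Calls required an adjusted p below 0.05 together with a log2 fold change beyond 1 in either direction. Standard errors are the absolute log2 fold change over the square root of F. There were 12 comparisons and 6 differences between comparisons. RPKM used the effective lengths, for levels between genes only. Alternatives were DESeq2 1.42.0, RLE factors, other filters, length-scaled counts, only the groups compared, no fold threshold, a replicate block and leaving out each library. With 2 mice in the study, an equal replicate number was taken to mark the same mouse, and deviations of same-numbered libraries correlated at −0.059 to 0.59 over 28 pairs of groups (median 0.073). The highest were between the 2 media of the same region and guide. They were 0.41 and 0.28 in proximal and distal Scramble-sgRNA and 0.59 and 0.40 in proximal and distal Cdx2-sgRNA organoids. The main fit did not pair these libraries.

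The 10 genes and all lists were chosen with earlier results of these data known. Named genes are the 10, the listed pathway genes called in at least 2 of 4 medium comparisons or in any Cdx2 comparison and reaching 5 CPM in the higher group, the most alike gene of each, and Cdx2. Promoter windows are RefSeq sequences of GRCm38.p6.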

Additional observations from a re-analysis of the deposited data

Results flagged for a closer look

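Groups hold 2 libraries, so single libraries were not tested as outliers. The results below were listed because the difference between a pair of comparisons was itself called. In Cdx2-sgRNA organoids the proximal minus the distal effect of withdrawing the factors was 2.09 for Id2 (SE 0.49, adjusted p = 0.0113), −1.91 for Bmp2 (SE 0.46, adjusted p = 0.0134) and −2.10 for Smad7 (SE 0.31, adjusted p = 0.00123). The proximal minus the distal effect of Cdx2 loss in WENR-minus medium was 1.34 for Id1 (SE 0.40, adjusted p = 0.0407), 2.72 for Id2 (SE 0.50, adjusted p = 0.00428) and 1.60 for Smad6 (SE 0.47, adjusted p = 0.0385). In WENR-plus medium it was 2.36 for Id1 (SE 0.42, adjusted p = 0.00835) and 1.66 for Smad7 (SE 0.32, adjusted p = 0.0117). For Bmp4 the same estimates were 6.60 (SE 1.44) and 8.32 (SE 1.06) in WENR-minus and WENR-plus medium. They are a description with no test, since Bmp4 passed the filter on low counts only through the group where it is high.

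Gm15222, the antisense gene inside Bmp4 that is no member of the 10, was listed for reads in proximal Cdx2-sgRNA libraries (22.0 to 95.9) where the Scramble-sgRNA libraries held none.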

How the results depend on the processing

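Of the 69 called values of the 10 genes over 18 contrasts, none changed direction under any alternative. The 69 include Bmp4 calls, for Cdx2 loss in proximal organoids, region in Cdx2-sgRNA organoids and the Cdx2 effect proximal minus distal. Bmp4 had to differ there, so its calls add no support to these tallies or to the counts below. DESeq2 and no filter kept all 69 (dropping the fold threshold can lose none by construction), RLE factors and the replicate block each lost 1 (Bmp7 and Id3, with withdrawal in distal Scramble-sgRNA organoids; the blocked estimate for Id3 was 1.01), and the block changed no other call and no count of calls by over 1.5 times. The filter of at least 10 counts in every library lost 1 of the 56 it could test, length-scaled counts lost 6 and fitting only the groups compared, which leaves fewer degrees of freedom, lost 18. Leaving out 1 library lost 71 of 316.

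Counts of the 10 genes called moved by over 1.5 times as follows. Without a filter they were 3 in place of 0 for Cdx2 loss in distal WENR-plus organoids (beside 586 of 27429 genes called). They were 5 in place of 3 for region in Cdx2-sgRNA WENR-plus organoids (beside 3200) and 9 in place of 3 for the Cdx2 effect proximal minus distal in WENR-plus medium (beside 1863). They were 1 in place of 0 for the medium effect proximal minus distal in Scramble-sgRNA organoids (beside 454) and for the medium effect Cdx2-sgRNA minus Scramble-sgRNA in either region (beside 1596 in the proximal and 354 in the distal region). The count for the last of these in proximal organoids was also 1 with the stricter filter and with DESeq2. DESeq2 gave 3 in place of 0 for Cdx2 loss in distal WENR-plus organoids and 6 in place of 3 for the Cdx2 effect proximal minus distal in WENR-plus medium. Length-scaled counts gave 2 in place of 4 for that difference in WENR-minus medium. With only the groups compared the counts were 0 in place of 5 for the medium in proximal Cdx2-sgRNA organoids, and 1 and 2 in place of 4 for region in Scramble-sgRNA organoids in WENR-minus and WENR-plus medium. The cause was not tested.

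Leaving out 1 library gave 4 to 6 calls for the medium in proximal and 3 to 5 in distal Scramble-sgRNA organoids, 4 to 5 and 5 to 6 in proximal and distal Cdx2-sgRNA organoids, 6 to 8 and 6 to 7 for Cdx2 loss in proximal WENR-minus and WENR-plus organoids, 0 to 3 and 0 to 1 in distal ones, 1 to 4 and 0 to 2 for region in Scramble-sgRNA WENR-minus and WENR-plus organoids, 5 to 6 and 3 in Cdx2-sgRNA ones, 2 to 4 for the medium effect proximal minus distal in Cdx2-sgRNA organoids, 0 to 1 for the medium effect Cdx2-sgRNA minus Scramble-sgRNA in proximal organoids, and 1 to 4 and 2 to 4 for the Cdx2 effect proximal minus distal in WENR-minus and WENR-plus medium. No share of all genes is set beside these ranges, so a loss in the 10 genes cannot be told from a loss in all genes. Per-length ranks of the 10 genes were the same with the deposited TPM in all 8 groups.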
